A study of Mus musculus with 18 samples.

Results

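The difference between GL261 tumours of immune-competent and immune-deficient hosts was compared across 2 days, as the change of the host difference between day 7 and day 14 after injection. GL261 is a mouse glioma cell line, and the tumours were grown in C57BL/6 mice. Of the 18 arrays of the study 8 enter the comparison, chosen by host and day in the labels. They are 2 arrays of day 14 tumours from Pfp/Rag2 -/- hosts, 2 of day 14 tumours from WT hosts, 2 of day 7 tumours from Pfp/Rag2 -/- hosts and 2 of day 7 tumours from WT hosts. Each group came from 4 mice, and the RNA of 2 or 3 mice was pooled for an array, so the arrays are pools and not single animals. The host difference is WT minus Pfp/Rag2 -/- on the log2 scale throughout, so a positive value means a higher signal in WT hosts. The host change is the host difference at day 14 minus that at day 7. It was measured for 14619 genes whose probe was detected on at least 2 of the 18 arrays, of 30469 genes linked to probes.

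Perforin, encoded by Prf1 and abbreviated Pfp in the strain name, is the pore-forming protein with which cytotoxic T cells and natural killer (NK) cells kill their targets. Rag2 is part of the recombinase that assembles antigen receptors, and without it no mature T or B cells form, while NK cells, macrophages, microglia and granulocytes still develop. T cells and NK cells release interferon-gamma, which raises a set of genes in neighbouring cells, among them those for guanylate-binding proteins, chemokines and the class II transactivator Ciita. MHC class II molecules present peptides to CD4 T cells and are found mainly on dendritic cells, B cells and activated macrophages and microglia. Type I interferons raise an overlapping set of antiviral genes.

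The hosts were first checked for the deleted genes. The brighter Prf1 probe read 7.83 and 7.97 log2 units in Pfp/Rag2 -/- tumours at day 14, against 8.67 and 7.85 in WT tumours. The day 7 readings were 8.05 and 8.03 in Pfp/Rag2 -/- tumours, against 8.16 and 7.61 in WT tumours. The groups overlapped at both days, with host differences of 0.36 at day 14 and -0.16 at day 7, and the host change was 0.51 ± 0.36 (SE, adjusted p = 0.48). Cultured GL261 cells (8.89 and 9.36) and healthy brain (8.57 and 8.69) were at least as bright as most tumour arrays. The other Prf1 probe was detected on 2 of the 8 arrays, and read 4.89 and 5.07 in Pfp/Rag2 -/- tumours and 5.82 and 5.67 in WT tumours at day 14. The Rag2 probe was detected on 0 of the 18 arrays. The position of these probes relative to the deletions is unknown here, so their levels do not check the genotype. Cd3d, a chain of the T cell receptor complex, was not well above background on any of the 4 Pfp/Rag2 -/- arrays and was detected on all 4 WT arrays.

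The 8 arrays had median probe signals of 99.8 to 134, and 35.8% to 39.8% of probes were detected. The fewest were detected in Pfp/Rag2 -/- tumours at day 14 (36.7% and 35.8%). Median negative control signals were 94.5 and 84.4 in these tumours and 101 and 93.1 in WT tumours at day 14, against 100 to 109 at day 7. The part of these array differences in the host changes was not tested. The SD of the difference between replicate arrays was 0.57 log2 units in Pfp/Rag2 -/- tumours and 0.583 in WT tumours at day 14, and 0.505 in Pfp/Rag2 -/- tumours and 0.286 in WT tumours at day 7. Marker signals of surrounding tissue differed between the arrays as well. The summed signal of 14 neuron markers, in percent of healthy brain, was 15 and 3.28 in Pfp/Rag2 -/- tumours and 24.7 and 6.39 in WT tumours at day 14. On day 7 it was 50.4 and 25.8 in Pfp/Rag2 -/- tumours and 33.5 and 29.4 in WT tumours. Replicate 1 of the Pfp/Rag2 -/- day 7 tumours stood apart, with 3 pituitary genes at 833% of the brain level and 13 choroid plexus genes at 113%. Some of the results that rest on it, but not all, are therefore also given without it.

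Promoters of 3 genes whose groups took different courses are shown here, from 250 bases before to 50 bases after the start of transcription (RefSeq, GRCm38.p6). H2-Eb1, an MHC class II beta chain gene, has its promoter at chr17:34305617-34305916 on the plus strand, and the capitals mark a Y box (CTGATTGG), the element bound by NF-Y in class II promoters. Gbp2, the gene of an interferon-induced guanylate-binding protein, has its promoter at chr3:142620413-142620712 on the plus strand. Rsad2, which encodes the antiviral enzyme viperin, has its promoter at chr12:26456403-26456702 on the minus strand. In these last 2 the capitals mark an interferon-stimulated response element (ISRE, searched as TTTC, any 2 bases and TTTC).
H2-Eb1: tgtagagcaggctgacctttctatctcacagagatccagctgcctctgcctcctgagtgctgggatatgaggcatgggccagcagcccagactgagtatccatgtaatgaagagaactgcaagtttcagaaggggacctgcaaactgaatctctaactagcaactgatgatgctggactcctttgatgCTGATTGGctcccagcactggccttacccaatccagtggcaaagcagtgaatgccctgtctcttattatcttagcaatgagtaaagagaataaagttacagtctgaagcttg
Gbp2: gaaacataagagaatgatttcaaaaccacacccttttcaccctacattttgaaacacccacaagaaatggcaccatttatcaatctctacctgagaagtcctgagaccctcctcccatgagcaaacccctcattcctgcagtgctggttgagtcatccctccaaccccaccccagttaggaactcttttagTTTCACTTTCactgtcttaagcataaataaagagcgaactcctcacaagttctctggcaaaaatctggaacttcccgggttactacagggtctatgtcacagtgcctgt
Rsad2: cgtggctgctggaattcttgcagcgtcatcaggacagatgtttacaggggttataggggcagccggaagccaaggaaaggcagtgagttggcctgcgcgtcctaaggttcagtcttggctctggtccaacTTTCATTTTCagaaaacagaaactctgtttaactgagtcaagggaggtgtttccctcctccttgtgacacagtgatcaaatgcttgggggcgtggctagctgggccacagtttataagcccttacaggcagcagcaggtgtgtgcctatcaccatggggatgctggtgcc
The match begins at position -62 from the start in H2-Eb1, -59 in Gbp2 and -120 in Rsad2. Among tested genes with a promoter in the table, the Y box was found in 3 of 7 MHC class II genes, against 6.57% of 8984 genes. The ISRE was found in 8 of 14 interferon-gamma response genes and in 9 of 15 antiviral genes, against 3.88% of the 8984. The gamma-activated site (TTCNNNGAA) was found in 6 of the 14 and 5 of the 15, against 8.31%. All motifs were searched on both strands, and an ISRE and a gamma-activated site can share bases. The 156 genes with a positive called host change and a promoter held the ISRE in 1.92%, the gamma-activated site in 7.69% and the Y box in 5.13%. The 66 with a negative called host change held them in 3.03%, 7.58% and 10.6%. A match of letters is a description and not a binding site.

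The host difference changed between the days for 349 genes (limma, adjusted p under 0.05), which is 2.39% of those tested. The change was positive for 229 genes (1.57%) and negative for 120 (0.821%). With cyclic loess scaling of the arrays in place of quantile scaling the split was 362 positive to 111 negative. At an unadjusted p under 0.05 there were 2813 genes (19.2%). The median host change over all genes was -0.05, and 45.0% of all genes had a positive one. In each of the 349 genes the 4 pairwise host differences at day 14 did not overlap the 4 at day 7, as in 26.5% of all genes. The count rests on a spread estimated over all 18 arrays. With the 14 tumour arrays alone 41 genes were called (0.280%), all among the 349. With the 8 arrays alone limma called 0 genes (0.00%), with a lowest adjusted p of 0.1 and 1652 genes (11.3%) at an unadjusted p under 0.05.

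Single arrays moved the count widely. Without Pfp/Rag2 -/- day 14 replicate 1 there were 387 calls, and without its replicate 2 there were 43. Without WT day 14 replicate 1 there were 114, and without its replicate 2 there were 676. Leaving out Pfp/Rag2 -/- day 7 replicate 1 gave 137 calls, 110 of them among the 349, and leaving out its replicate 2 gave 1388. Without WT day 7 replicate 1 there were 16 calls, all among the 349, and without its replicate 2 there were 111.

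Most of the 349 were host differences that opened by day 14. In this class 233 genes were called between hosts at day 14 and not at day 7. The signal at day 14 was higher in WT hosts for 136 of them and lower for 97. Of the 136, 93 fell between the days in Pfp/Rag2 -/- tumours and 66 rose in WT tumours, against 16.6% and 3.86% of all genes. Of the 97, 84 rose in Pfp/Rag2 -/- tumours and 19 fell in WT tumours, against 18.9% and 4.71% of all genes. A host difference called at day 7 closed by day 14 in 59 genes, grew in 22, turned in 3 and shrank in 1. The last 31 were called between hosts at neither day. Over all genes 13.4% were called between hosts at day 14 (6.96% higher and 6.42% lower in WT) and 3.31% at day 7 (2.29% higher and 1.02% lower in WT). Between the days 35.5% of all genes were called in Pfp/Rag2 -/- tumours and 8.56% in WT tumours. The classes describe how the 349 moved and carry no test of their own.

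**Figure D1:**
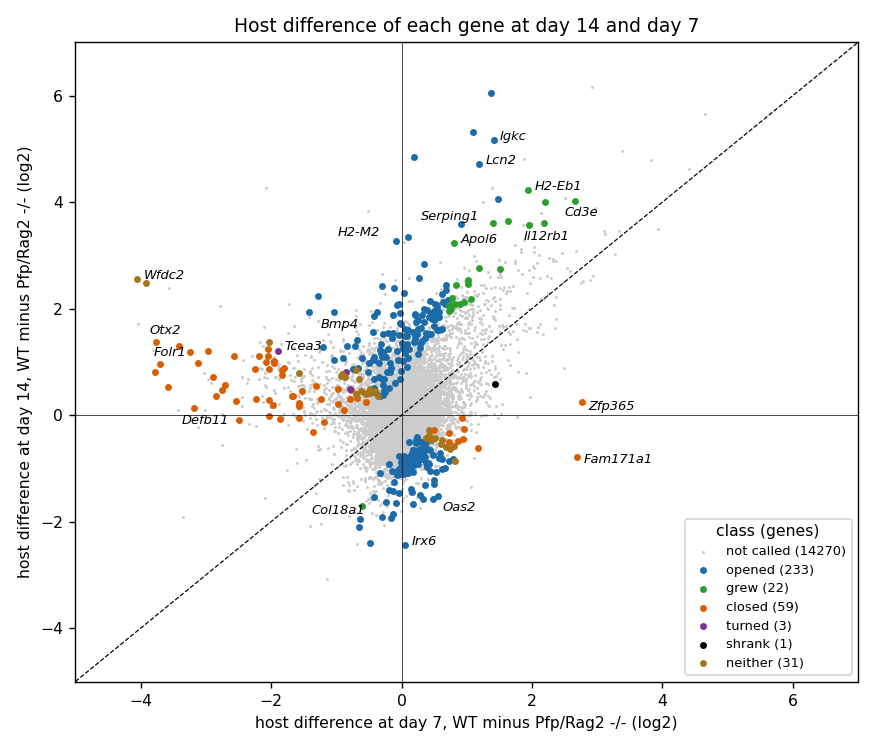
Each point is 1 of 14619 genes, with its host difference (WT minus Pfp/Rag2 -/-, log2) at day 7 on the x axis and at day 14 on the y axis. Points on the dashed diagonal have the same difference at both days, and coloured points are the 349 called genes by class. Of the 59 genes that closed, 49 have a positive host change and lie to the left, where the day 7 signal was higher in Pfp/Rag2 -/- tumours.

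Of the 349 genes 15 were called in each of the 8 analyses that left out 1 array and with the 14 tumour arrays, 12 with a positive host change and 3 with a negative one. They were picked for these calls after their values were seen. For 7 of them the WT day 14 arrays were, among the 8 arrays, alone in a detected signal. Detection on these arrays was enough to pass the detection filter, so these genes could enter the test through their high group alone. How far this selection shaped their adjusted p was not tested. H2-M2, a non-classical MHC class I gene, read 5.49 and 4.76 log2 units in Pfp/Rag2 -/- tumours and 8.85 and 7.92 in WT tumours at day 14. Readings at day 7 were 5.27 and 4.84 in Pfp/Rag2 -/- tumours and 5.11 and 4.83 in WT tumours, with no array well above background. The signal in WT tumours at day 14 was at least 5.73-fold that in Pfp/Rag2 -/- tumours of that day and at least 6.82-fold that in WT tumours at day 7 (host change adjusted p = 0.0015). Healthy brain (4.49 and 4.49) and cultured GL261 cells (4.57 and 4.54) were also at background for H2-M2. For each such bound the dimmer side is set to the lowest level at which probes are detected, so the measured difference may be larger.

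Apol6, an apolipoprotein L gene, read 4.56 and 4.55 in Pfp/Rag2 -/- tumours and 7.52 and 8.05 in WT tumours at day 14. On day 7 no array was well above background, with 4.51 and 4.60 in Pfp/Rag2 -/- tumours and 5.35 and 5.37 in WT tumours. The day 7 host difference was nevertheless called (0.81 ± 0.19, adjusted p = 0.032), so that of Apol6 grew. The day 14 WT signal was at least 3.78-fold that of Pfp/Rag2 -/- tumours (host change adjusted p = 0.0015). Cpa3, the mast cell carboxypeptidase, read 4.63 and 4.66 in Pfp/Rag2 -/- tumours and 7.30 and 6.59 in WT tumours at day 14. Its day 7 values were 4.68 and 4.46 in Pfp/Rag2 -/- tumours and 4.61 and 4.60 in WT tumours. The day 14 WT signal of Cpa3 was at least 2.11-fold higher than in Pfp/Rag2 -/- tumours (host change adjusted p = 0.0066). Scin, which encodes the actin-severing protein scinderin, read 5.26 and 5.09 in Pfp/Rag2 -/- tumours and 7.45 and 7.03 in WT tumours at day 14. At day 7 Scin was at background in all 4, from 5.13 to 5.31, and its day 14 WT signal was at least 2.59-fold that of Pfp/Rag2 -/- tumours (host change adjusted p = 0.0015). AI324046, 9030216K14RIK and LOC100041137, named as on the array, completed the 7. Their day 14 WT signals were at least 3.93-fold, 1.23-fold and 1.06-fold those of Pfp/Rag2 -/- tumours, with host change adjusted p of 0.0015, 0.0041 and 0.0034.

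Il12rb1, the receptor chain shared by interleukin 12 and interleukin 23, was already higher in WT hosts at day 7. It read 4.86 and 4.60 in Pfp/Rag2 -/- tumours and 8.19 and 8.57 in WT tumours at day 14. On day 7 the values were 4.63 and 4.75 in Pfp/Rag2 -/- tumours and 6.24 and 6.40 in WT tumours. The 4 Pfp/Rag2 -/- arrays were at background and the WT signal was at least 5.7-fold theirs at day 14 and at least 1.59-fold at day 7 (host change adjusted p = 0.0061). In WT tumours Il12rb1 rose by 2.06 log2 units between the days.

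Between the days Fzd7 was called in both hosts, Apoc1 in WT tumours and Bmp4 in Pfp/Rag2 -/- tumours. Fzd7, a Wnt receptor, read 8.12 and 8.18 in Pfp/Rag2 -/- tumours and 9.27 and 9.36 in WT tumours at day 14, against 9.24 and 9.07 in Pfp/Rag2 -/- tumours and 8.73 and 8.96 in WT tumours at day 7. The Pfp/Rag2 -/- arrays stood below the WT arrays at day 14 and above them at day 7. The host change of Fzd7 was 1.47 ± 0.16 (SE, adjusted p = 0.0015), made of a fall of Pfp/Rag2 -/- tumours between the days (-1.01, adjusted p = 0.0014) and a rise of WT tumours (0.47, adjusted p = 0.028). Apoc1, an apolipoprotein of lipid-handling macrophages and other cells, read 7.83 and 7.52 in Pfp/Rag2 -/- tumours and 8.67 and 8.84 in WT tumours at day 14. At day 7 Apoc1 read 8.20 and 8.08 in Pfp/Rag2 -/- tumours and 7.76 and 7.31 in WT tumours. Its host change was 1.68 ± 0.24 (adjusted p = 0.0083), and WT tumours rose by 1.22 between the days. Bmp4, a bone morphogenetic protein, read 5.30 and 5.15 in Pfp/Rag2 -/- tumours, below detection, and 7.44 and 6.86 in WT tumours at day 14. At day 7 Bmp4 was detected on all 4 arrays, with 7.81 and 7.56 in Pfp/Rag2 -/- tumours and 6.35 and 6.96 in WT tumours. The Pfp/Rag2 -/- signal of Bmp4 was thus at least 3.53-fold higher at day 7 than at day 14, and the host change had an adjusted p of 0.0044. Healthy brain was brighter for Bmp4 (8.28 and 8.14) than any tumour array, and cultured GL261 cells were at background (4.51 and 4.48).

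Defb11, a beta-defensin gene, was the stable gene that closed from the other side. It was detected on the Pfp/Rag2 -/- day 7 arrays alone (8.47 and 7.69). It read 4.71 and 4.72 in Pfp/Rag2 -/- tumours and 4.58 and 5.12 in WT tumours at day 14, and 4.60 and 5.21 in WT tumours at day 7. The day 7 Pfp/Rag2 -/- signal was at least 5.51-fold that of WT tumours (host change adjusted p = 0.0015). Healthy brain was also bright for Defb11 (8.63 and 8.61), and cultured cells were not (4.75 and 4.78). The part of surrounding tissue in the Defb11 result was not tested.

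The 3 stable genes with a negative host change were Pcdhb12, Irx6 and Zfp365. Pcdhb12, a clustered protocadherin of cell adhesion, read 6.76 and 6.43 in Pfp/Rag2 -/- tumours and, below detection, 5.09 and 4.94 in WT tumours at day 14. The values at day 7 were 5.95 and 5.78 in Pfp/Rag2 -/- tumours and 6.20 and 6.19 in WT tumours. The Pfp/Rag2 -/- signal was at least 1.85-fold that of WT tumours at day 14 (host change adjusted p = 0.0015), after a day 7 on which WT arrays were slightly brighter (0.33 ± 0.15, adjusted p = 0.32). Its neighbour in the gene cluster, Pcdhb14, read 7.30 and 7.23 in Pfp/Rag2 -/- tumours and 5.71 and 5.47 in WT tumours at day 14. At day 7 Pcdhb14 read 6.57 and 6.74 in Pfp/Rag2 -/- tumours and 6.85 and 6.81 in WT tumours (host change adjusted p = 0.021, called in 4 of the 8 analyses without 1 array, highest adjusted p 0.092 without WT day 7 replicate 1). The 2 probes may share sequence with other members of the cluster, which was not tested.

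Irx6, an Iroquois homeobox transcription factor, was detected on the Pfp/Rag2 -/- day 14 arrays alone, with 7.54 and 7.15 there and 4.97 and 4.86 in WT tumours. On day 7 it was at background, with 4.87 and 5.26 in Pfp/Rag2 -/- tumours and 4.84 and 5.39 in WT tumours. Its day 14 signal in Pfp/Rag2 -/- tumours was at least 3.11-fold that of WT tumours (host change adjusted p = 0.002). Brain (4.65 and 4.65) and cultured cells (4.76 and 4.68) were at background for Irx6. Detection on the Pfp/Rag2 -/- day 14 arrays was enough for Irx6 to pass the detection filter, so its high group alone could bring it into the test. Zfp365, a zinc finger gene, closed instead, with 10.25 and 10.56 in Pfp/Rag2 -/- tumours and 10.78 and 10.51 in WT tumours at day 14. At day 7 it read 8.86 and 9.61 in Pfp/Rag2 -/- tumours and 12.11 and 11.89 in WT tumours. The day 7 groups were far apart and the day 14 groups overlapped, with a host change of -2.52 ± 0.28 (adjusted p = 0.0015). Zfp365 was brighter in healthy brain (12.98 and 12.99) than in cultured cells (10.22 and 10.34).

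**Figure D2:**
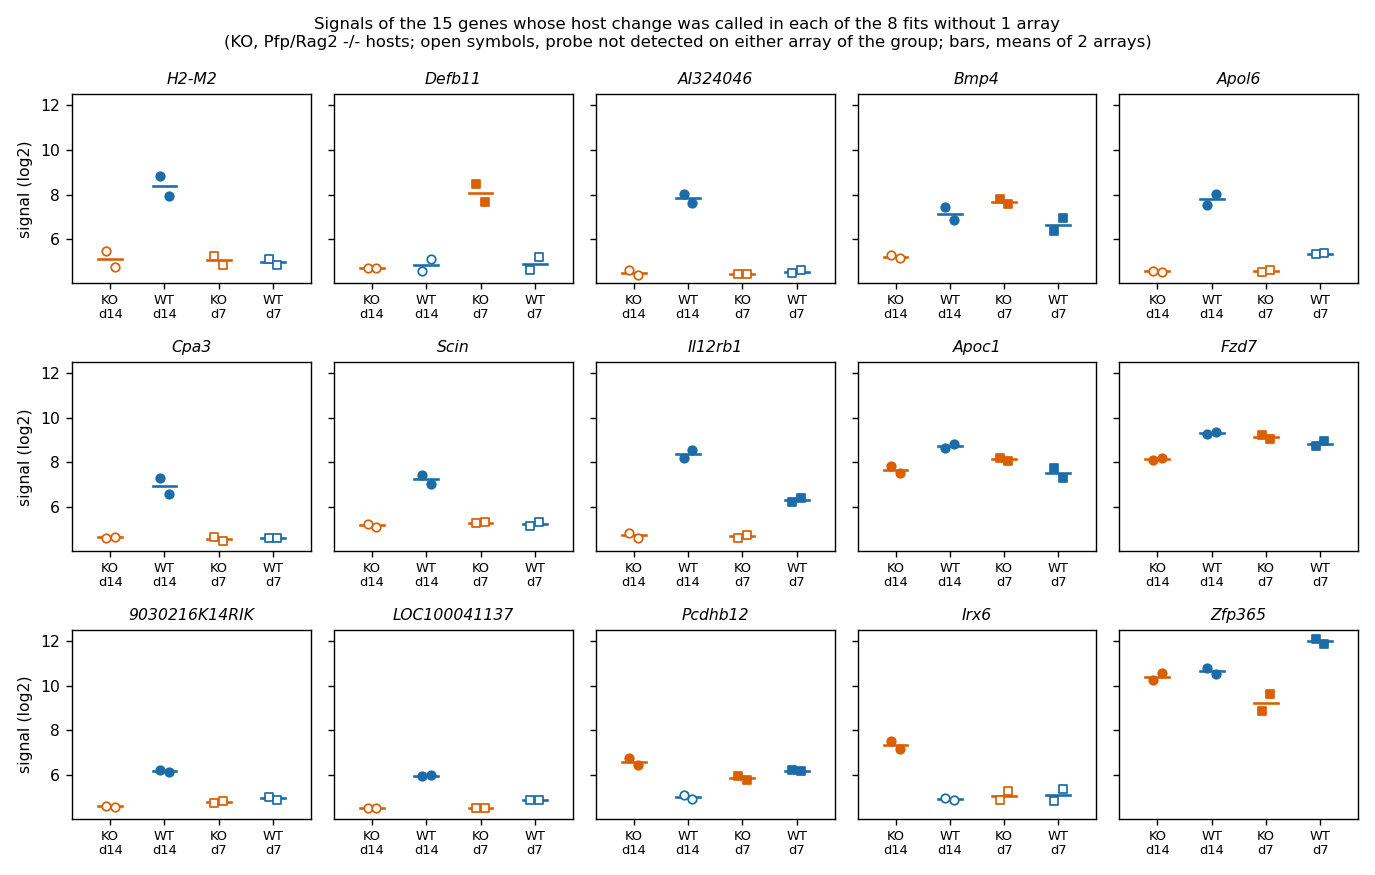
Log2 signal of the 15 genes called in each of the 8 analyses without 1 array, on the 2 arrays of each group (points) with the group mean (bars). KO stands for Pfp/Rag2 -/- hosts, circles are day 14 and squares day 7, and open symbols mark groups in which the probe was detected on neither array. In 7 panels WT day 14 is the only filled group. Irx6 is filled in Pfp/Rag2 -/- tumours at day 14 alone and Defb11 in Pfp/Rag2 -/- tumours at day 7 alone.

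The MHC class II genes were higher in WT hosts at both days, and more so at day 14. All 10 tested members had a positive host change, with a median of 1.52 against -0.05 over all genes, and the median ran from 1.18 to 1.86 over all alternative settings. The median host difference of the 10 was 3.43 at day 14 and 1.87 at day 7. The host change was called for 3 of the 10, against 1.57% of all genes in that direction, and for 0 to 2 of the 10 without 1 array. With the 14 tumour arrays alone 0 of the 10 were called. Of all gene lists in the text, the checkpoint list (2 called) and the chemokine list (1 called) alone held calls in that fit. H2-Eb1, whose promoter is shown above, read 8.92 and 9.37 in Pfp/Rag2 -/- tumours and 13.28 and 13.46 in WT tumours at day 14. The day 7 readings were 8.42 and 9.10 in Pfp/Rag2 -/- tumours and 10.15 and 11.25 in WT tumours. WT and Pfp/Rag2 -/- arrays were apart at both days, and the gap widened by 2.29 ± 0.53 (adjusted p = 0.044). In WT tumours H2-Eb1 rose by 2.67 between the days (adjusted p = 0.002), and in Pfp/Rag2 -/- tumours the difference was 0.38 (adjusted p = 0.44). H2-DMa and H2-DMb1, the 2 chains of the peptide exchange factor for class II, had host changes of 1.62 ± 0.36 (adjusted p = 0.04) and 1.24 ± 0.27 (adjusted p = 0.039). These 3 genes were called in 1, 2 and 2 of the 8 analyses without 1 array, with highest adjusted p of 0.15, 0.14 and 0.14 without WT day 7 replicate 1, and without Pfp/Rag2 -/- day 7 replicate 1 their adjusted p was 0.057, 0.057 and 0.075. Cd74, the invariant chain, differed by 3.80 between hosts at day 14 and 2.14 at day 7 (host change 1.65 ± 0.55, adjusted p = 0.12).

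The lymphocyte genes called were all positive. Fewer cells of a type and less RNA per cell cannot be told apart in these pools, here and for every cell type marker below. Of 17 T cell genes 3 were called, all positive (Cd3d, Cd3e and Zap70), against 1.57% of all genes. A positive host change was seen in 14 of the 17, against 45.0% of all genes, and the median was 1.03. Without 1 array 0 to 5 were called. Cd3d read 4.61 and 4.59 in Pfp/Rag2 -/- tumours, at background, and 8.68 and 8.57 in WT tumours at day 14. Readings at day 7 were 4.68 and 4.72 in Pfp/Rag2 -/- tumours and 7.56 and 7.16 in WT tumours. The WT signal was at least 6.77-fold that of Pfp/Rag2 -/- tumours at day 14 and at least 3.26-fold at day 7 (host change adjusted p = 0.025). Within WT tumours Cd3d rose by 1.27 between the days (adjusted p = 0.0025). Cd3e, another chain of the same complex, was at background in Pfp/Rag2 -/- tumours as well and rose by 1.70 in WT tumours (adjusted p = 0.003). Zap70, the kinase that the T cell receptor recruits, differed in that it was detected on Pfp/Rag2 -/- day 7 replicate 1 (6.60) and in healthy brain (6.70 and 6.73), and it fell in Pfp/Rag2 -/- tumours between the days. The other tested Zap70 probe gave a host change of 1.42 (adjusted p = 0.12). The part of brain tissue in the Zap70 result was not tested. Cd3d, Cd3e and Zap70 were each called in 3 of the 8 analyses without 1 array.

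Of 15 listed B and plasma cell genes 4 were tested. These 4 all had a positive host change, against 45.0% of all genes, with a median of 1.41 (0.79 to 2.03 without 1 array). The change was called for 1 of them, against 1.57% of all genes in that direction. Without the filter on dim probes 12 genes had a median of 0.33, and 0 were called. Igkc, the immunoglobulin kappa constant region, read 5.52 and 6.37 in Pfp/Rag2 -/- tumours and 11.80 and 10.42 in WT tumours at day 14. On day 7 the values were 6.03 and 5.40 in Pfp/Rag2 -/- tumours and 6.52 and 7.73 in WT tumours. The WT day 14 arrays were far above the others, and the host change was 3.75 ± 0.87 (adjusted p = 0.044, called in 2 of the 8 analyses without 1 array, highest 0.16 without WT day 7 replicate 1). In WT tumours Igkc rose by 3.98 (adjusted p = 0.0031). The array's genes IGHG, LOC100047628 and LOC100047788 followed the same course and are among the 10 largest positive changes. Their day 14 WT signals were at least 11.8-fold, 29.6-fold and 23.3-fold those of Pfp/Rag2 -/- tumours, with host change adjusted p of 0.039, 0.015 and 0.0098. They were called in 2, 6 and 7 of the 8 analyses without 1 array, with highest adjusted p of 0.13, 0.078 and 0.056 without WT day 7 replicate 1.

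Of 8 tested NK and cytotoxic genes 0 had a called host change, against 2.39% of all genes. Of the 8, 6 had a positive one, and their median was 0.07, from -0.18 to 0.60 without 1 array. The median host difference was 1.54 at day 14 and 1.25 at day 7. Ifng, which encodes interferon-gamma, was at background on the 4 Pfp/Rag2 -/- arrays and read 7.01 and 7.19 in WT tumours at day 14, against 7.83 and 6.46 in WT tumours at day 7. Its WT signal was at least 2.35-fold that of Pfp/Rag2 -/- tumours at day 14 and at least 2.81-fold at day 7, and the host change had an adjusted p of 0.99. Nkg7, a granule protein gene, differed by 2.48 at day 14 and 2.75 at day 7 (host change adjusted p = 0.76).

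The interferon-gamma response genes were mostly higher in WT hosts at both days. Of 18 tested members 17 were called higher in WT at day 7 and 15 at day 14, with 0 lower at either day. The median host difference was 1.86 at day 14 and 1.92 at day 7, and the median host change was -0.13, with a range of -0.29 to 0.08 over the alternative settings. Gbp2 read 12.71 and 12.55 in Pfp/Rag2 -/- tumours and 14.54 and 14.75 in WT tumours at day 14. The values at day 7 were 12.85 and 13 in Pfp/Rag2 -/- tumours and 14.76 and 14.47 in WT tumours. The hosts were separate by a like amount at both days, and the host change was 0.32 ± 0.18 (adjusted p = 0.36). Serpina3f, an inducible serine protease inhibitor, was at background on the 4 Pfp/Rag2 -/- arrays, and its WT signal was at least 11.6-fold theirs at day 14 and at least 10.4-fold at day 7 (host change adjusted p = 0.73). Cxcl9, a T cell chemokine, differed by 5.65 at day 14 and 4.64 at day 7 (host change 1.01 ± 0.47, adjusted p = 0.26). A p above the threshold does not show that these differences stayed the same.

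Gbp6 was the member called, with a negative host change, as 11 of the 18 members had. It read 9.68 and 9.79 in Pfp/Rag2 -/- tumours and 9.59 and 9.77 in WT tumours at day 14, against 8.84 and 9.13 in Pfp/Rag2 -/- tumours and 10.02 and 9.81 in WT tumours at day 7. WT and Pfp/Rag2 -/- arrays were apart at day 7 and overlapped at day 14, with a host change of -0.99 ± 0.23 (adjusted p = 0.044, called in 2 of the 8 analyses without 1 array, highest 0.15 without WT day 7 replicate 1). Gbp6 rose in Pfp/Rag2 -/- tumours between the days by 0.75 (adjusted p = 0.0066). The other tested Gbp6 probe, detected on 16 of the 18 arrays, gave a host change of -0.93 (adjusted p = 0.19). The 20 tested MHC class I and peptide loading genes had 0 calls and a median host change of -0.01 (-0.12 to 0.17 over the alternative settings), from medians of 1.03 at day 14 and 0.86 at day 7.

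The antiviral genes of the type I interferon response ran against the MHC class II genes. Of 22 tested members 21 had a negative host change and 1 a positive one, against 45.0% positive over all genes. Their median was -0.75, and the median lay between -0.83 and -0.63 under every alternative setting. The median host difference was -0.36 at day 14 and 0.36 at day 7. The change was called for 1 of the 22, against 0.821% of all genes in that direction, and for 0 to 6 without 1 array. Oas2, an oligoadenylate synthetase that senses double-stranded RNA, read 9.29 and 10.32 in Pfp/Rag2 -/- tumours and 8.39 and 8.21 in WT tumours at day 14. On day 7 it read 8.28 and 9.13 in Pfp/Rag2 -/- tumours and 9.02 and 8.96 in WT tumours. The hosts were separate at day 14 with WT lower, and overlapped at day 7. The host change of Oas2 was -1.79 ± 0.43 (adjusted p = 0.049, called in 2 of the 8 analyses without 1 array, and 0.15 without Pfp/Rag2 -/- day 7 replicate 1). Rsad2 read 12.68 and 12.41 in Pfp/Rag2 -/- tumours and 11.60 and 12.10 in WT tumours at day 14, against 12.34 and 12.39 in Pfp/Rag2 -/- tumours and 12.88 and 12.37 in WT tumours at day 7. Its host change was -0.95 ± 0.26 (adjusted p = 0.071). Isg20, an exonuclease gene, differed by -0.04 at day 14 and 1.77 at day 7 (host change -1.81 ± 0.47, adjusted p = 0.062). Mx1, a GTPase gene, was the member with a positive host change (0.25).

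**Figure D3:**
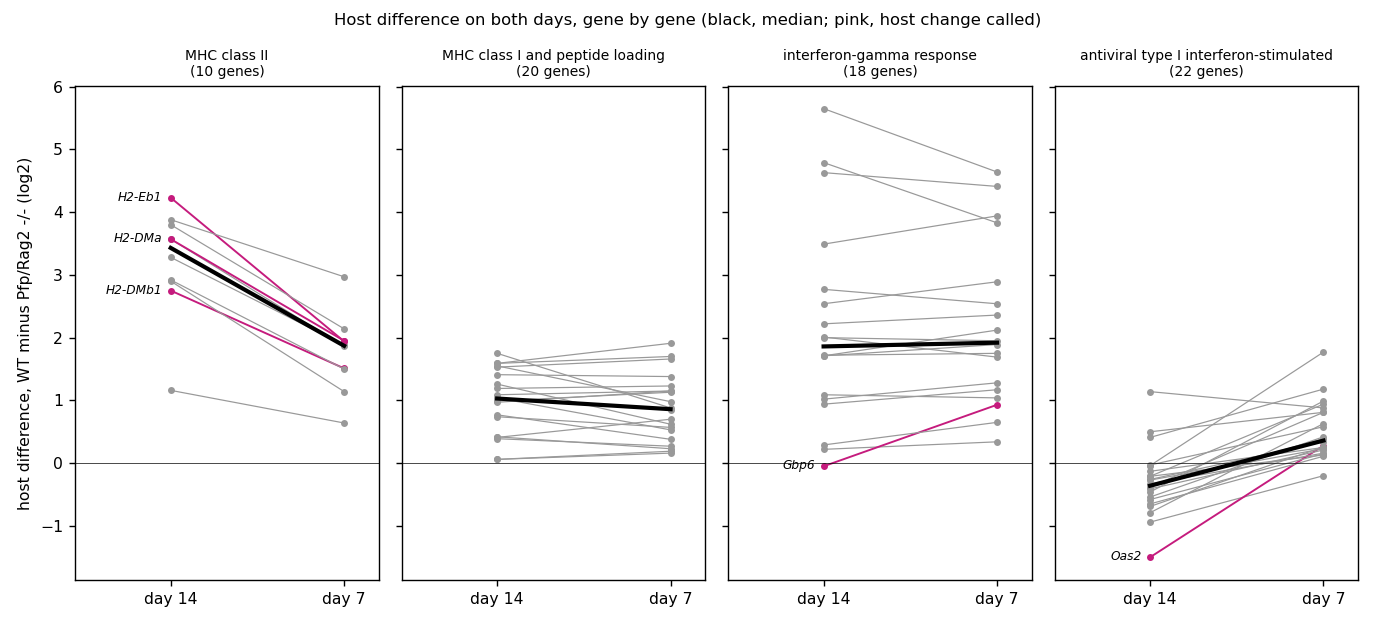
Host difference (WT minus Pfp/Rag2 -/-, log2) of each tested gene at day 14 and day 7 in 4 lists, with the list median in black and genes whose host change was called in pink. The median of the 10 MHC class II genes is 3.43 at day 14 and 1.87 at day 7. The medians of the MHC class I and interferon-gamma lists are nearly level, and that of the 22 antiviral genes is -0.36 at day 14 and 0.36 at day 7.

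Most macrophage and microglia genes had a positive host change, and few passed the test. Of 17 macrophage and monocyte genes 16 had a positive host change, against 45.0% of all genes, with a median of 1.13, and 2 were called, Adgre1 and Fcer1g, against 1.57% of all genes. Of 17 homeostatic microglia genes 15 were positive, with a median of 1.03, and 4 were called, Olfml3, C1qa, C1qb and C1qc. The lists share genes, and the 3 C1q genes also stand in the complement list. Adgre1, which encodes the macrophage surface protein F4/80, read 7.97 and 7.42 in Pfp/Rag2 -/- tumours and 9.86 and 9.65 in WT tumours at day 14. The day 7 readings were 7.99 and 8.47 in Pfp/Rag2 -/- tumours and 8.38 and 9.18 in WT tumours. The day 7 groups overlapped and the day 14 groups did not, with a host change of 1.51 ± 0.35 (adjusted p = 0.045). Fcer1g, the signalling chain of Fc receptors, had a host change of 1.32 ± 0.32 (adjusted p = 0.049) and fell in Pfp/Rag2 -/- tumours by 0.79 between the days. Olfml3, a secreted protein of microglia, had a host change of 1.13 ± 0.24 (adjusted p = 0.035) and likewise fell in Pfp/Rag2 -/- tumours (-0.79, adjusted p = 0.0065).

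Complement component C1q, the recognition molecule of the classical pathway, is made by macrophages and microglia. C1qb read 11.33 and 10.40 in Pfp/Rag2 -/- tumours and 13 and 12.47 in WT tumours at day 14. Readings at day 7 were 11.98 and 12.12 in Pfp/Rag2 -/- tumours and 12.28 and 12.46 in WT tumours. The Pfp/Rag2 -/- day 14 arrays were the lowest of the 8, and the host change was 1.55 ± 0.36 (adjusted p = 0.044). C1qb fell by 1.19 in Pfp/Rag2 -/- tumours between the days (adjusted p = 0.0065), and in WT tumours the difference was 0.37 (adjusted p = 0.36). C1qa and C1qc had host changes of 1.45 ± 0.33 and 1.64 ± 0.36 (adjusted p = 0.044 and 0.039). Serping1, the inhibitor of the C1 proteases, read 8.52 and 7.73 in Pfp/Rag2 -/- tumours and 11.64 and 11.82 in WT tumours at day 14, against 9.81 and 9.04 in Pfp/Rag2 -/- tumours and 10.71 and 10.92 in WT tumours at day 7. WT and Pfp/Rag2 -/- arrays were apart at both days and the gap grew by 2.21 ± 0.41 (adjusted p = 0.021). In all 4 of 10 tested complement genes were called, all positive, against 1.57% of all genes in that direction. The C1q genes among them are also counted in the microglia list, so the 2 counts are not separate. Without 1 array 0 to 5 of the 10 complement genes were called. The macrophage, microglia and complement genes named here were called in 1 to 4 of the 8 analyses without 1 array. Without Pfp/Rag2 -/- day 7 replicate 1 the counts were 3 of 17 for macrophage, 1 of 17 for microglia and 0 of 10 for complement genes.

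The summed macrophage and monocyte signal was 291% and 296% of healthy brain in Pfp/Rag2 -/- tumours and 1502% and 1192% in WT tumours at day 14. At day 7 it was 319% and 561% in Pfp/Rag2 -/- tumours and 956% and 884% in WT tumours. The hosts were separate at both days and the WT day 14 arrays were the highest. The microglia signal was 158% and 109% in Pfp/Rag2 -/- tumours and 332% and 266% in WT tumours at day 14, and 204% and 258% in Pfp/Rag2 -/- tumours and 250% and 270% in WT tumours at day 7. The day 7 hosts overlapped and the day 14 hosts did not. Cultured GL261 cells had 23.3% and 23.5% of the brain's macrophage signal and 16.4% and 15.6% of its microglia signal.

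Of 17 chemokine genes 2 were called, Cxcl16 and Ccl3, both positive, against 1.57% of all genes, and 12 of the 17 were positive. Their median was 0.71, and 0.04 without WT day 14 replicate 1. Of 14 checkpoint genes 2 were called, Vsir and Ctla4, both positive, and 10 of the 14 were positive (median 0.76). Without 1 array 0 to 3 of each list were called. Cxcl16, a chemokine that attracts CXCR6-bearing T cells, read 8.67 and 8.83 in Pfp/Rag2 -/- tumours and 11.33 and 11.11 in WT tumours at day 14. On day 7 the values were 9.22 and 9.24 in Pfp/Rag2 -/- tumours and 10.16 and 10.34 in WT tumours. WT and Pfp/Rag2 -/- arrays were apart at both days and the gap grew by 1.45 ± 0.24 (adjusted p = 0.015). Cxcl16 lost its call in 1 of the 8 analyses, without WT day 7 replicate 1 (adjusted p = 0.077). Ctla4, an inhibitory receptor of T cells, was at background on the 4 Pfp/Rag2 -/- arrays and read 7.51 and 6.86 in WT tumours at day 14 and 5.67 and 5.71 at day 7. Its WT signal was at least 2.49-fold higher at day 14 and at least 1.03-fold higher at day 7 than in Pfp/Rag2 -/- tumours (host change adjusted p = 0.014, and 0.069 without WT day 7 replicate 1). Vsir, the gene of the inhibitory ligand VISTA of myeloid cells, read 6.81 and 6.45 in Pfp/Rag2 -/- tumours and 8.10 and 8.22 in WT tumours at day 14. At day 7 Vsir read 7.08 and 7.61 in Pfp/Rag2 -/- tumours and 7.00 and 7.14 in WT tumours, so the hosts overlapped then, and the host change was 1.81 ± 0.25 (adjusted p = 0.0066, and 0.052 without WT day 7 replicate 1). Ccl3, a macrophage inflammatory chemokine, had a host change of 1.08 ± 0.23 (adjusted p = 0.037).

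Lcn2, the iron-scavenging lipocalin of neutrophils and reactive astrocytes, changed most among the acute phase genes. It read 7.91 and 6.39 in Pfp/Rag2 -/- tumours and 11.85 and 11.89 in WT tumours at day 14, against 8.56 and 10.12 in Pfp/Rag2 -/- tumours and 10.36 and 10.71 in WT tumours at day 7. The 4 Pfp/Rag2 -/- arrays were below the 4 WT arrays and spread more widely. The host change was 3.52 ± 0.79 (adjusted p = 0.04, called in 3 of the 8 analyses without 1 array, highest 0.13 without WT day 7 replicate 1), and Lcn2 fell by 2.19 in Pfp/Rag2 -/- tumours (adjusted p = 0.012). Lgmn, a lysosomal protease, was the called gene of the 17 lipid-associated myeloid genes (1.06 ± 0.25, adjusted p = 0.049), and that list's median was 0.20. Timp3, a metalloproteinase inhibitor, was called of 13 protease genes (0.98 ± 0.23, adjusted p = 0.043), but its other 2 probes gave 0.06 and 0.35 and were not called.

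Stress and signal-response genes had mostly negative host changes. Of 13 immediate early genes 12 were negative with a median of -0.58, against 8047 negative of all 14619 genes. The host change was called for 2, Egr1 and Egr2, against 0.821% of all genes in that direction. Both are zinc finger factors that growth signals and synaptic activity switch on. Egr2 read 8.68 and 8.62 in Pfp/Rag2 -/- tumours and 8.50 and 7.90 in WT tumours at day 14. The values at day 7 were 7.78 and 8.12 in Pfp/Rag2 -/- tumours and 8.88 and 8.92 in WT tumours. The order of the hosts was opposite on the 2 days, with a host change of -1.40 ± 0.25 (adjusted p = 0.02, called in 4 of the 8 analyses without 1 array). Egr1 had a host change of -1.29 ± 0.29 (adjusted p = 0.039, called in 2 of the 8). Of 16 genes of the unfolded protein response 13 were negative with a median of -0.45, and 1 was called, against 0.821% of all genes in that direction. Ddit3, a transcription factor of stress-induced cell death, was the member called (-1.15 ± 0.26, adjusted p = 0.039, called in 3 of the 8), and it rose by 0.99 in Pfp/Rag2 -/- tumours between the days (adjusted p = 0.004). Without WT day 7 replicate 1 the adjusted p was 0.079 for Egr2 and 0.13 for Egr1 and Ddit3, and without Pfp/Rag2 -/- day 7 replicate 1 it was 0.057 for Egr2 and 0.12 for the others.

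Among 22 extracellular matrix genes Col18a1, a basement membrane collagen, was the member called. It read 13.32 and 13.56 in Pfp/Rag2 -/- tumours and 11.53 and 11.64 in WT tumours at day 14, against 11.95 and 12.60 in Pfp/Rag2 -/- tumours and 12.01 and 12.30 in WT tumours at day 7. The hosts overlapped at day 7, and by day 14 Pfp/Rag2 -/- tumours had risen by 1.17 (adjusted p = 0.0071). The host change was -1.73 ± 0.36 (adjusted p = 0.035, called in 3 of the 8 analyses without 1 array, highest 0.11 without Pfp/Rag2 -/- day 14 replicate 2). The list's median was 0.05.

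The largest negative host change was that of Fam171a1, a membrane protein gene. It read 8.51 and 8.57 in Pfp/Rag2 -/- tumours and 8.21 and 7.29 in WT tumours at day 14, against 5.08 and 6.15 in Pfp/Rag2 -/- tumours and 8.39 and 8.21 in WT tumours at day 7. The Pfp/Rag2 -/- day 7 arrays stood apart, and the host change was -3.47 ± 0.60 (adjusted p = 0.016, called in 6 of the 8 analyses without 1 array, highest 0.078 without WT day 7 replicate 1). Kcnk2, a background potassium channel, read 9.75 and 9.31 in Pfp/Rag2 -/- tumours and 8.60 and 9.22 in WT tumours at day 14. On day 7 it read 7.97 and 8.49 in Pfp/Rag2 -/- tumours and 9.47 and 9.33 in WT tumours, and the host change was -1.79 ± 0.29 (adjusted p = 0.014). The other tested Kcnk2 probe, detected on 2 of the 18 arrays, gave -0.20 (adjusted p = 0.73). Myh3, the embryonic myosin heavy chain, rose in Pfp/Rag2 -/- tumours by 1.66 (adjusted p = 0.005), with a host change of -1.93 ± 0.46 (adjusted p = 0.049). Ipcef1, Ydjc and Zfp979 complete the 10 largest negative changes, with host changes of -1.80, -2.08 and -2.05 (adjusted p = 0.011, 0.025 and 0.031). The other 2 tested Ipcef1 probes gave -1.47 (adjusted p = 0.061) and -0.63 (adjusted p = 0.58). Myh3, Ydjc and Zfp979 were called in 2, 4 and 3 of the 8 analyses without 1 array.

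**Figure D4:**
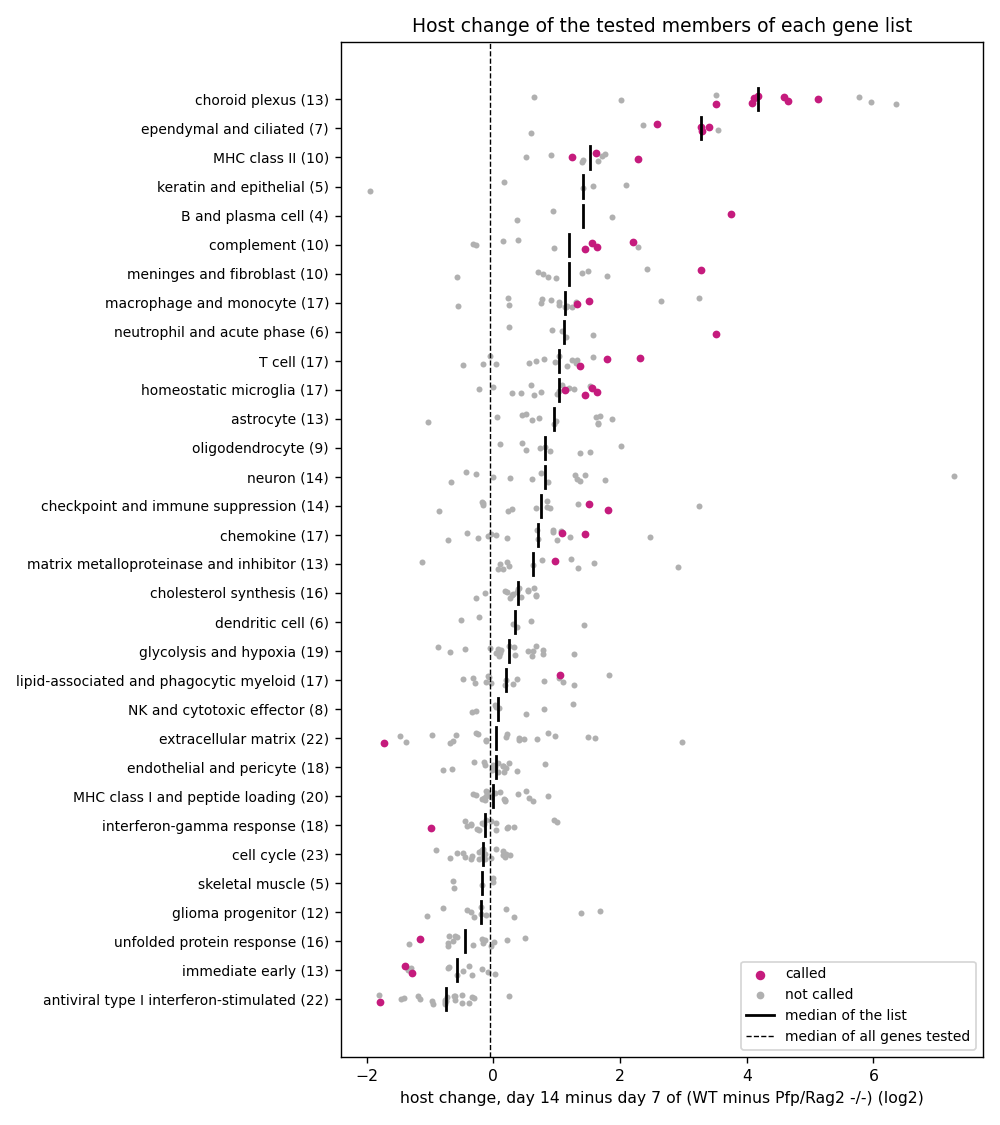
Host change (log2) of each tested member of the lists with at least 4 tested genes, ordered by the list median (black bars), with called genes in pink and the median of all genes (-0.05) as a dashed line. The choroid plexus and ependymal lists lie farthest to the right, at medians of 4.18 and 3.28. The 10 MHC class II genes have a median of 1.52, and the 22 antiviral genes are lowest, at -0.75.

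Genes of the ventricle lining had large host changes, with the signal highest in Pfp/Rag2 -/- tumours at day 7. The choroid plexus is the epithelium that makes cerebrospinal fluid, and ependymal cells are the ciliated cells of the ventricle wall. All 13 choroid plexus genes had a positive host change, with a median of 4.18, and 7 were called, against 1.57% of all genes. Their median host difference was 0.98 at day 14 and -3.42 at day 7, so the day 7 signal was lower in WT hosts. All 7 ependymal genes were positive as well (median 3.28, 4 called). Otx2, a transcription factor of the choroid plexus, read 6.05 and 4.64 in Pfp/Rag2 -/- tumours and 6.47 and 6.95 in WT tumours at day 14. The day 7 readings were 10.56 and 8.17 in Pfp/Rag2 -/- tumours and 5.43 and 5.78 in WT tumours. The Pfp/Rag2 -/- day 7 arrays were the highest of the 8 and differed between themselves by more than any other pair. The host change of Otx2 was 5.13 ± 1.15 (adjusted p = 0.04), and 0.12 without Pfp/Rag2 -/- day 7 replicate 1.

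Sostdc1, which is secreted and blocks BMP and Wnt signals, read 5.63 and 4.67 in Pfp/Rag2 -/- tumours and 5.07 and 6.28 in WT tumours at day 14, against 9.47 and 8.23 in Pfp/Rag2 -/- tumours and 4.94 and 5.58 in WT tumours at day 7. Its day 7 signal in Pfp/Rag2 -/- tumours was at least 9.4-fold that of WT tumours (host change adjusted p = 0.016, and 0.046 without Pfp/Rag2 -/- day 7 replicate 1). Folr1, the folate receptor of this epithelium, and Cldn2, its tight junction claudin, had day 7 signals in Pfp/Rag2 -/- tumours at least 7.1-fold and 8.91-fold those of WT tumours (host change adjusted p = 0.032 and 0.039), and both lost their calls without Pfp/Rag2 -/- day 7 replicate 1 (0.065 and 0.1). Tekt1, a protein of ciliary microtubules, read 9.08 and 7.20 in Pfp/Rag2 -/- tumours at day 7, and its host change had an adjusted p of 0.028, and 0.033 without Pfp/Rag2 -/- day 7 replicate 1. Wfdc2 and Ecrg4, secreted proteins of epithelia, had the largest called host changes (host change adjusted p = 0.049 for each). That of Ecrg4 was 6.40 ± 1.54. The Pfp/Rag2 -/- signal of Wfdc2 was at least 22.4-fold higher at day 7 than at day 14 (adjusted p of this time difference 0.0073). Wfdc2 and Ecrg4 were called between hosts neither at day 7 (adjusted p = 0.073 and 0.074) nor at day 14 (0.16 for each). Both lost the call of their host change without Pfp/Rag2 -/- day 7 replicate 1. Enpp2, which makes lysophosphatidic acid, differed between hosts by 2.23 at day 14 (adjusted p = 0.015). Its day 7 host difference of -1.28 was not called (adjusted p = 0.27), and cultured GL261 cells were also bright for it (11.48 and 11.71). The host changes of Msx1, a homeobox factor, Enpp2 and Col8a2, a short-chain collagen, were called too (adjusted p = 0.027, 0.039 and 0.049). Without Pfp/Rag2 -/- day 7 replicate 1 these 3 lost their calls (0.059, 0.12 and 0.16).

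Summed over the same 13 genes, the choroid plexus signal was 3.93% and 2.72% of healthy brain in Pfp/Rag2 -/- tumours and 13.1% and 34.7% in WT tumours at day 14. At day 7 it was 113% and 64.9% in Pfp/Rag2 -/- tumours and 15.8% and 28.7% in WT tumours. That of the 7 ependymal genes was 39.4% and 15.2% in Pfp/Rag2 -/- tumours and 89.6% and 41.5% in WT tumours at day 14, and 240% and 81.5% in Pfp/Rag2 -/- tumours and 44.4% and 45.6% in WT tumours at day 7. Both lists were highest on Pfp/Rag2 -/- day 7 replicate 1. Without that array 1 of 13 choroid plexus genes (median 3.49) and 1 of 7 ependymal genes (median 2.34) were called. Ogn, a matrix protein of the meninges, was the called gene of 10 meningeal and fibroblast genes (adjusted p = 0.019, and 0.034 without that array). Of 14 neuron, 13 astrocyte, 9 oligodendrocyte and 3 pituitary genes 0 were called, and their medians were 0.81, 0.96, 0.82 and 2.77. The largest host change of all genes, that of the glutamate transporter gene Slc17a6 (7.27 ± 2.06), was not called (adjusted p = 0.081). The part of dissected tissue in these results was not tested.

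**Figure D5:**
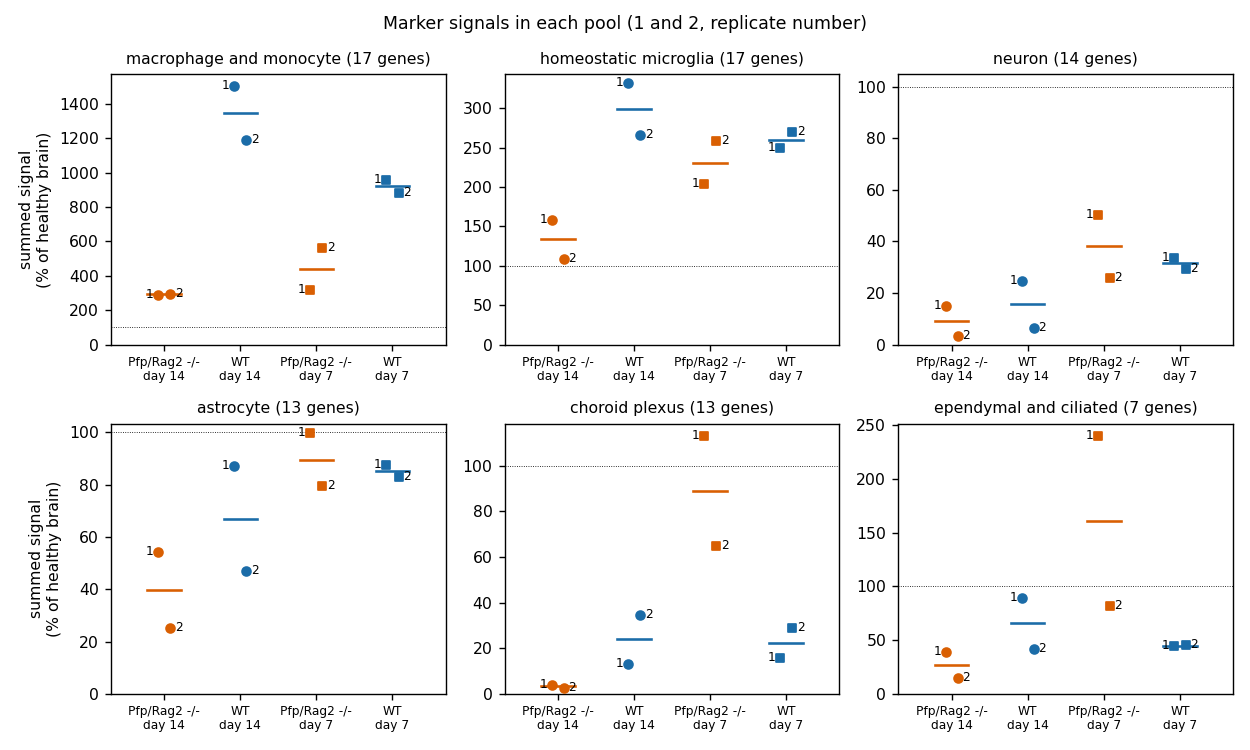
Summed signal of 6 marker lists on each array in percent of healthy brain (dotted line at 100), with the replicate number beside each point and the mean of the 2 arrays as a bar, each panel on its own axis from 0. Choroid plexus and ependymal signals are highest on Pfp/Rag2 -/- day 7 replicate 1, at 113% and 240%. Macrophage signal is highest on the WT day 14 arrays, at 1502% and 1192%.

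A host difference that turned sign with a call on both days was seen in 3 genes. Tcea3, a transcription elongation factor, read 6.23 and 6.17 in Pfp/Rag2 -/- tumours and 7.61 and 7.21 in WT tumours at day 14. Readings at day 7 were 8.93 and 7.57 in Pfp/Rag2 -/- tumours and 6.33 and 6.37 in WT tumours. The hosts were separate on both days in opposite order, by 1.21 ± 0.33 at day 14 and -1.90 ± 0.33 at day 7. The host change of Tcea3 was 3.11 ± 0.46 (adjusted p = 0.0094, and 0.056 without WT day 7 replicate 1). Gpx8, a peroxidase of the endoplasmic reticulum, differed by 0.50 ± 0.14 at day 14 and -0.79 ± 0.14 at day 7 (host change adjusted p = 0.012, and 0.057 without Pfp/Rag2 -/- day 14 replicate 2). Myo7a, an unconventional myosin, differed by 0.80 ± 0.21 at day 14 and -0.86 ± 0.21 at day 7 (host change adjusted p = 0.02, called in 5 of the 8 analyses without 1 array). The other tested Gpx8 probe, detected on all 18 arrays, gave a host change of 0.95 (adjusted p = 0.081), and that of Tcea3 gave 1.64 (adjusted p = 0.042). Of genes that closed, Zfp185, a LIM domain gene, was detected on both Pfp/Rag2 -/- day 7 arrays (7.64 and 6.50) and on neither WT day 7 array, a signal at least 2.74-fold higher. Its host change had an adjusted p of 0.0066, and 0.05 without WT day 7 replicate 1. The array's gene 6430530L21RIK was the 1 that shrank, with a host difference of 0.59 at day 14 and 1.44 at day 7 (host change adjusted p = 0.049). It was below detection in all but WT day 7 tumours, so its size at day 14 is not a measured fold.

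The symptomatic tumours, 3 arrays per host, do not enter the contrast but do enter the spread and the detection filter behind the calls, and they were looked at after the data were seen. Over all genes 16.8% were called between hosts at that stage, 9.06% higher in WT and 7.75% lower. Of the 136 genes that opened with a higher WT signal, 98 were called higher in WT hosts in symptomatic tumours and 0 lower. Of the 97 that opened with a lower one, 53 were called lower and 0 higher. All 21 genes that grew with WT higher were called higher at the symptomatic stage. Of the 49 genes that closed with a positive host change 0 were called higher and 2 lower. H2-M2, Apol6 and Il12rb1 had symptomatic host differences of 4.62, 3.60 and 3.30 and Pcdhb12 and Irx6 of -2.35 and -1.98, all called. AI324046, Bmp4 and Zfp365 had differences of 0.31, 0.57 and -0.39, not called (adjusted p = 0.37, 0.11 and 0.13). Of the 13 choroid plexus genes 0 were called at that stage, and their median host difference was -0.14.

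Lists of other functions held no called gene. Of 23 cell cycle, 19 glycolysis and hypoxia, 16 cholesterol synthesis, 18 endothelial and pericyte, 12 glioma progenitor, 6 dendritic cell, 5 keratin and epithelial, 5 skeletal muscle and 2 red blood cell genes 0 had a called host change, against 2.39% of all genes. Their medians were -0.16, 0.25, 0.39, 0.05, -0.20, 0.34, 1.41, -0.18 and 1.73. On simulated arrays of this size 32% of host changes of 1 log2 unit and 80% of changes of 2 were recovered. Of changes of 0.5, 0% were recovered, so smaller changes in these lists could be missed. The simulated noise was independent and equally wide in all groups, unlike that of the measured arrays, so the rates may not hold for them.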

How the data were processed

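RNA of tumours pooled from 2 or 3 mice was labelled and hybridised to Illumina MouseWG-6 v2.0 arrays, per the labels' protocols. The deposited probe table holds 1 linear signal intensity per probe and array, with no background subtraction or scaling, as its values show. A deposited gene table summarises every group per gene (minimum, average, maximum signal) with other detection columns, from GenomeStudio 1.9.0 per the submitters' processing notes. The deposited series matrix holds linear intensity values close to the probe signals, capped, with their scaling unknown. Chip and scan time are not given here, so no batch was tested. The number of arrays limits the precision.

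Probes carry no gene names in the files used here. They were named by matching the gene table's group values to the probe signals, which linked 30469 of 30854 genes (98.8%). Symbols were updated through RefSeq tables for 16223 genes by symbol and 3472 by synonym, and 11159 names were kept as in the file.

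Signals were corrected by normexp on 936 negative control probes with an offset of 16, quantile scaled and put on the log2 scale (neqc). A probe had to be detected at p under 0.01 on at least 2 of 18 arrays, and a gene with several probes was represented by its brightest on average. A linear model with 1 mean per group was fitted on all 18 arrays in limma 3.58.1 (R 4.3.3), with 10 residual and 3.01 prior degrees of freedom. Adjusted p-values are Benjamini-Hochberg values over 14619 genes, and an adjusted p under 0.05 was called. Errors after ± are standard errors. As tumour replicates are pools, p-values do not measure the spread between single mice. The spread behind them is shared over all 18 arrays, and so is not that of the compared tumour pools alone. The SD of replicate differences was 0.197 in healthy brain and 0.263 in cultured cells, against 0.286 to 0.583 in the 4 groups compared. Other steps used Python 3.11.15. On simulated arrays 98% of changes of 3 log2 units were recovered, and 5 of 14419 unchanged genes were called. The simulated noise was independent between arrays and equally wide in all groups. That of the measured arrays differed between groups and was correlated between replicates of the same number, so these rates may not hold for them.

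Named genes were the 10 largest positive and negative called changes whose host differences did not overlap between the days, up to 10 turned, the 5 smallest p of the closed and shrank classes, and the 4 smallest p of each list. The members and lists were chosen with earlier results of these data known. Genes called without each array, and examples from the lists, were picked after their values were seen. Scaling, background, offset, filter, probe rule, arrays fitted, source of values and a replicate block were varied, and each of the 8 arrays was left out.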

Additional observations from a re-analysis of the deposited data

Results flagged for a closer look

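The test of the host change is itself a test of whether the host effect differs between the 2 days, so each called gene named in the text meets that criterion. The counts are 229 genes with a positive and 120 with a negative host change. The adjusted p of the host change (limma, 2 arrays per group) was 0.0015 for H2-M2, Defb11, AI324046, Apol6, Scin, Fzd7, Pcdhb12 and Zfp365, 0.002 for Irx6, 0.0034 for LOC100041137, 0.0041 for 9030216K14RIK, 0.0044 for Bmp4, 0.0061 for Il12rb1, and 0.0083 for Apoc1. It was 0.0066 for Zfp185, Cpa3 and Vsir, 0.0094 for Tcea3, and 0.0098 for LOC100047788.

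The value was 0.011 for Ipcef1, 0.012 for Gpx8, 0.013 for 9130230N09RIK, 0.014 for Ctla4 and Kcnk2, 0.015 for LOC100047628 and Cxcl16, 0.016 for Sostdc1 and Fam171a1, and 0.019 for Ogn. It was 0.02 for Myo7a and Egr2, 0.021 for Serping1 and Pcdhb14, 0.025 for Zap70, Cd3d and Ydjc, 0.027 for Msx1, and 0.028 for Tekt1. It was 0.031 for Zfp979, 0.032 for Folr1, 0.034 for Cd3e, 0.035 for Olfml3 and Col18a1, 0.037 for Cfap126 and Ccl3, and 0.039 for IGHG, Cldn2, Enpp2, C1qc, H2-DMb1, Ddit3 and Egr1. The remaining genes lie close to the threshold, at 0.04 for Otx2, Lcn2 and H2-DMa, 0.043 for Timp3, 0.044 for Igkc, H2-Eb1, C1qb, C1qa and Gbp6, 0.045 for Adgre1, 0.047 for Mia, and 0.049 for Wfdc2, Ecrg4, Col8a2, Rsph1, Fcer1g, Lgmn, 6430530L21RIK, Oas2 and Myh3.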

How the results depend on the processing

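None of the 72 named genes called turned the sign of its host change under the alternatives run. The 14 tumour arrays gave 41 calls (31 positive, 10 negative), with 33 opened, 3 grew, 5 closed and 0 shrank, turned or neither, 283 host calls at day 7 and 543 time calls in WT. The 8 arrays alone gave 0 calls (0 positive, 0 negative, 0 in each class), 645 host calls at day 14, 57 at day 7, and time calls for 0 genes in Pfp/Rag2 -/- and 7 in WT tumours. Without the filter there were 207 calls (129 positive, 78 negative), with 146 opened, 33 closed, 8 neither and 0 shrank. The series matrix gave 165 calls (98 positive, 67 negative), with 119 opened, 13 grew, 26 closed, 5 neither and 0 shrank. Cyclic loess gave 473 calls, 362 positive, with 40 grew, 95 closed and 7 turned, and moved the median of all genes to 0.05 from -0.05. Without background correction 37 grew and 10 turned, an offset of 50 gave 0 shrank and 8 turned, and the mean of probes gave 2 shrank. Other than the smaller sets of arrays or genes in these alternatives, the cause was not tested.

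Leaving out single arrays gave 16 to 1388 calls, 13 to 822 positive and 3 to 566 negative. Host calls ran from 921 to 2454 at day 14 and 123 to 1271 at day 7, and time calls from 455 to 5784 in Pfp/Rag2 -/- and 142 to 2919 in WT tumours. The classes ran from 12 to 529 opened, 1 to 29 grew, 2 to 529 closed, 0 to 5 shrank, 0 to 79 turned and 0 to 220 neither. Of the 72 named genes called, 23 stayed called with the 14 tumour arrays, 0 with the 8 arrays, 53 with the series matrix, 42 without the filter, 64 to 72 under each other setting and 16 to 68 without single arrays. The difference between replicates 1 and 2 was correlated between groups, by 0.7176 between WT and Pfp/Rag2 -/- tumours at day 14. Pfp/Rag2 -/- day 7 tumours gave 0.4446 and 0.4302 with these 2 groups, and WT day 7 tumours 0.2141 and 0.1982. Between the hosts at day 7 it was 0.0597. Replicates of the same number thus shared part of their differences, for a reason not tested. The labels do not give the numbers as pairs, and the main model treats the arrays as independent. With the replicate number as a block there were 402 calls (268 positive, 134 negative), with 0 shrank and 6 turned. Dim probes limit what can be seen below detection, where bounds replace folds.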
